A study of Mus musculus with 12 samples.

Results

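Fat1, Fat3, Fat4 and Dchs1 encode Fat and Dachsous cadherins, very large single-pass membrane proteins whose extracellular part is a long chain of cadherin repeats. These 4 genes were taken by name from 21950 genes in all. They had been proposed from the genotype values of these same libraries, so their own genotype differences are given as a description, without a test. All 4 were listed for whole lung and 3 of them for vesicles, where Dchs1 was not listed. No level is read from that absence, because in the vesicle table the larger of both group means was at least 2.0 RPKM (reads scaled to exon length and to the library's total in genes) for every gene.

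As background, Fat4 and Dchs1 form a ligand and receptor pair between neighbouring cells, and both act in the orientation of cells within a tissue (planar polarity). In flies the orthologues also feed into the Hippo pathway, a kinase cascade that restrains the transcriptional co-activators Yap1 and Wwtr1. The kinase Four-jointed modifies the fly cadherin repeats in the Golgi, and Fjx1 is its mouse relative. Fat1 binds actin regulators of the Ena/VASP family and is found at the leading edge of migrating cells, and Fat3 is best known from neurons of the mouse retina. Mice without Fat4 or Dchs1 have defects in several organs, the kidney and skeleton among them.

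RNA was sequenced from extracellular vesicles, membrane particles released by cultured lung mesenchymal cells into medium over 48 hours, and from whole lungs of adult C57BL/6 mice. The groups were 2 mutant-labelled and 4 wild-type vesicle libraries, and 2 mutant-labelled and 4 wild-type lung libraries. Per the sample labels the mutants carry ColcreER; Tbx4flox/flox, a tamoxifen-dependent Cre with a Col driver and floxed alleles of Tbx4, a transcription factor of lung mesenchyme. The series' design text names Tbx4creER; Ghrflox/flox instead, with the growth hormone receptor gene Ghr floxed. Neither says which Col gene drives Cre or whether tamoxifen was given, and the labels do not say whether libraries of a group came from separate animals. The p-values below therefore measure only the spread between these libraries, which may be technical. Each mean is given with its SD, from 2 mutant-labelled and 4 wild-type libraries, and differences are mutant-labelled minus wild type on the log2(RPKM + 1) scale.

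Some libraries went against their labels or stood apart. The mutant-labelled lungs held 20.9 and 36.7 RPKM of Tbx4, against 26.1 to 30.1 RPKM in wild type, so it was not lower in both, and it was not listed for vesicles. Ghr was at 13.1 and 11.2 RPKM in mutant-labelled vesicles and 19.8 to 25.1 RPKM in wild-type vesicles (-0.83, SE 0.66, limma adjusted p = 0.627). In lung Ghr was at 9.83 and 12.9 RPKM in the mutant-labelled group and 11.8 to 13.3 RPKM in wild type. Mutant-labelled vesicle library 1 held the fibroblast gene Dcn at 0.550 RPKM, against 311 RPKM in mutant-labelled library 2 and 164 to 357 RPKM in wild-type vesicles. The Y-linked gene Ddx3y was read in wild-type libraries 1 and 2 of both sources and at or near 0 elsewhere. Sex by this gene thus differed within wild type and was not balanced against the mutant label. The wild-type libraries of a source therefore did not all come from the same animal or pool. Vesicle libraries held 1745204 and 1676490 reads in genes in the mutant-labelled group and 4199519 to 5406238 in wild type, while lungs held 42693275 to 44803966. Across genes the mutant-labelled vesicle libraries correlated at 0.417 and the wild-type ones at 0.589 to 0.678 (Spearman), the mutant-labelled lungs at 0.965 and the wild-type lungs at 0.980 to 0.990. For the label of mesenchymal origin, 13 of 15 fibroblast markers were listed in the vesicle table, without Tcf21 and Fbln1, though Mfap4 was at 0 RPKM in mutant-labelled library 1. Of other lists 7 of 11 macrophage, 4 of 8 mesothelial, 1 of 10 endothelial and 0 of 10 lymphocyte markers were listed.

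The windows around annotated starts are shown for Fat1, Fat3 and Fat4, since no window was available for Dchs1. RefSeq gave a window for 3 of the 4 members on GRCm38.p6, from 250 bases before to 50 bases after the start. Capitals mark GGAATG, the core of the motif of the Hippo pathway's TEAD factors. GGAATG and the T-box letters GGTGTGA, which do not overlap in these windows, were searched on both strands.
Fat1, chr8:44949958-44950257, plus strand: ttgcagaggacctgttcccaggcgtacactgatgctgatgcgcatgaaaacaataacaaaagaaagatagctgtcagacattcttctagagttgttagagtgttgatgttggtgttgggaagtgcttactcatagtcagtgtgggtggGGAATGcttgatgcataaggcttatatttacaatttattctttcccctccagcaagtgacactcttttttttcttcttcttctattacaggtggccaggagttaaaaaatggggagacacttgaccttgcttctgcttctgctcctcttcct
Fat4, chr3:38886690-38886989, plus strand: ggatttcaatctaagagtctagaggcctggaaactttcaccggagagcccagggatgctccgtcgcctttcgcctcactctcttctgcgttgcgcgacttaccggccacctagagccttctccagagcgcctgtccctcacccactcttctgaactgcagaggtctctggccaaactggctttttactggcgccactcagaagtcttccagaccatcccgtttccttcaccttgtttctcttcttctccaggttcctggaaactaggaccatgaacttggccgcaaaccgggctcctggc
Fat3, chr9:16502005-16502304, minus strand: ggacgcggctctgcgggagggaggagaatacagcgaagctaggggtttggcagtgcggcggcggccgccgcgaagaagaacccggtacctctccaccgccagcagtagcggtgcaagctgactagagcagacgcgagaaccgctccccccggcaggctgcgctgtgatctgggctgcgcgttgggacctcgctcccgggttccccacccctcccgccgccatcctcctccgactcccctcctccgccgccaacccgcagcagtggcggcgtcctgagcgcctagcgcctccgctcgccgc

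The windows had little in common. The Fat3 window held 35 CpG dinucleotides and 71.3% G or C, the Fat4 window 13 and 55.7%, and the Fat1 window 2 and 42.7%, beside a median of 7 and 52.7% over 32851 windows. GGAATG was found once, in Fat1, and 14.7% of all windows held it. GGTGTGA was found in none of the 3 windows, and 3.98% of all windows held it. The start used for Fat1 lay 17108 bases inside the outermost annotated start of the gene, that of Fat4 2273 bases and that of Fat3 627 bases, so the Fat1 window in particular is not the outermost promoter.

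In vesicles Fat4, the Dachsous receptor, had the largest log2 difference of the members. Fat4 (ENSMUSG00000046743, mm9 chromosome 3, 38785862 to 38910907, plus strand) stood at 116 and 36.9 RPKM in mutant-labelled vesicles and at 1.82, 11.4, 1.35 and 4.69 RPKM in wild-type vesicles. Both mutant-labelled libraries were above every wild-type library, and the lower of them was 3.23 times the highest wild-type value. For Fat1 this gap was nearly the same, at 3.15 times. The counts behind these levels were 3470 and 1061 reads in mutant-labelled vesicles and 140, 913, 97 and 435 reads in wild type. The means were 76.4 ± 55.8 and 4.82 ± 4.64 RPKM, a log2 difference of 3.84 (SE 0.91). Neither group was even, since the mutant-labelled libraries differed 3.14-fold and the wild-type ones 8.48-fold. The difference was 3.03 without mutant-labelled library 1 and 4.65 without mutant-labelled library 2.

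Fat1 (ENSMUSG00000070047, mm9 chromosome 8, 46035562 to 46137611, plus strand), the family member that binds Ena/VASP proteins, was steadier within each group. It stood at 20.4 and 27.5 RPKM in mutant-labelled vesicles and at 6.47, 4.31, 6.25 and 4.87 RPKM in wild-type vesicles, on 555 and 718 reads against 313 to 452 reads. Both mutant-labelled libraries were again above all 4 wild-type ones, with library 2 the higher, the reverse of Fat4. The means were 23.9 ± 5.0 and 5.47 ± 1.05 RPKM, a ratio of 4.37 and a log2 difference of 1.95 (SE 0.77). The difference was 2.15 without mutant-labelled library 1 and 1.74 without mutant-labelled library 2.

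Fat3 (ENSMUSG00000074505, mm9 chromosome 9, 15714649 to 16182681, minus strand) was high in a single library. It stood at 15.7 and 0.226 RPKM in mutant-labelled vesicles and at 0, 0.395, 0.348 and 0 RPKM in wild-type vesicles. Mutant-labelled library 1 held 505 reads and library 2 held 7, against 0, 34, 27 and 0 in wild type, so the groups overlapped. A count of 0 still allows 3 reads, or 0.0363 RPKM in wild-type library 1 and 0.0301 RPKM in wild-type library 4, as far as counting error goes. Its mean of 7.95 RPKM in mutant-labelled vesicles, against 0.186 RPKM in wild type, passed the level of the vesicle table only through mutant-labelled library 1. Fat3 did not pass the filter of 1 RPKM in 2 libraries in either table.

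**Figure D1:**
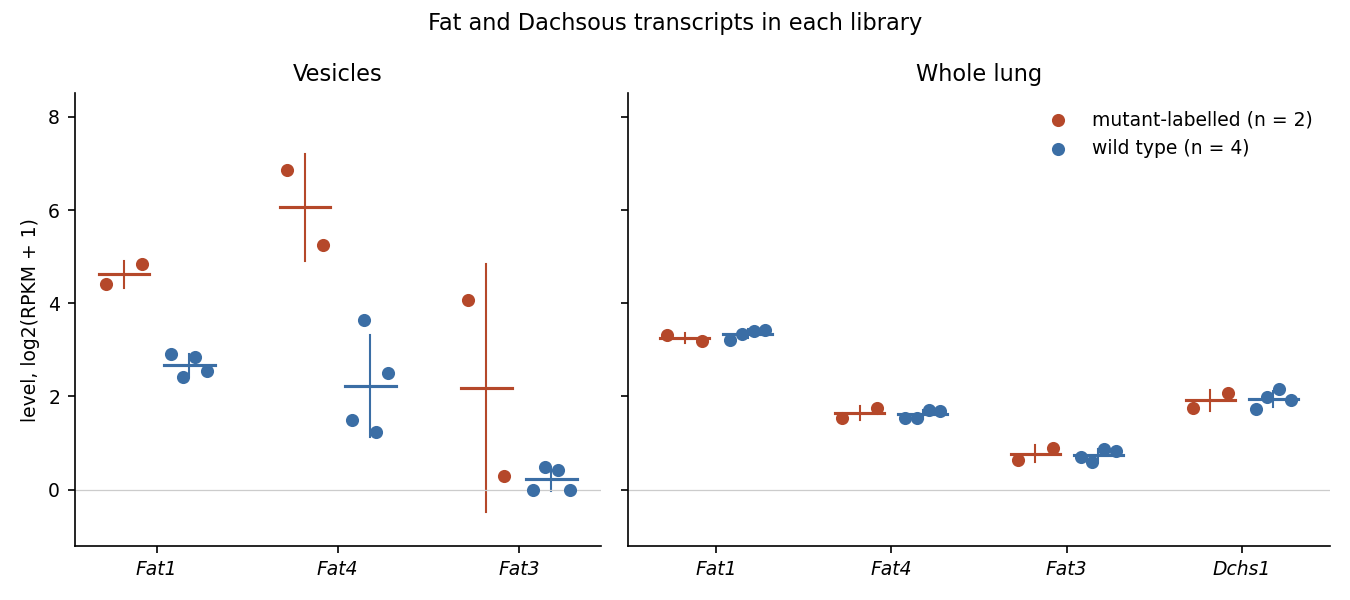
Level of each listed member on the log2(RPKM + 1) scale in vesicles (left) and whole lung (right). Each point is a library, horizontal lines are group means and vertical lines are SD (2 mutant-labelled and 4 wild-type libraries). Fat1 and Fat4 lie apart in vesicles, where Fat3 is high in 1 library, and all 4 genes overlap in lung.

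Whole lung gave no such separation for any member. For Fat1 the mutant-labelled lungs held 9.03 and 8.09 RPKM and the wild-type lungs 8.22, 9.19, 9.53 and 9.73 RPKM, on 5445 to 6652 reads in every lung. Mutant-labelled lung 2 was the lowest of all 6 and lung 1 lay among the wild-type lungs (difference -0.09, SE 0.08, 95% confidence interval -0.29 to 0.12). For Fat4 they held 1.89 and 2.38 RPKM in the mutant-labelled group and 1.92, 1.89, 2.30 and 2.20 RPKM in wild type. Mutant-labelled lung 2 was the highest of the 6 and lung 1 lay within the wild-type range (0.03, SE 0.10, interval -0.21 to 0.26). The vesicle and lung tables were normalized separately, and the difference between sources was not tested.

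Dchs1 (ENSMUSG00000036862, mm9 chromosome 7, 112901503 to 112936168, minus strand) is the cadherin that Fat4 binds. The mutant-labelled lungs held 2.39 and 3.21 RPKM of it and the wild-type lungs 2.31, 2.97, 3.45 and 2.78 RPKM, and both mutant-labelled values lay within that range (difference -0.03, SE 0.14, interval -0.37 to 0.31). Fat3 lay at 0.561 and 0.865 RPKM in the mutant-labelled group and at 0.632, 0.501, 0.834 and 0.771 RPKM in wild-type lungs, also overlapping (0.02, SE 0.11, fitted without the filter). In whole tissue fewer cells of a type and less RNA per cell cannot be told apart.

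Per kilobase, the order in lung was Fat1 at 9.17 ± 0.670, Dchs1 at 2.88 ± 0.475, Fat4 at 2.08 ± 0.203 and Fat3 at 0.685 ± 0.149 RPKM in wild-type lungs. Dchs1 and Fat4 overlapped across lungs, yet Dchs1 was the higher in each of the 6, at 1.20 to 1.57 times Fat4. The relatives Fat2 and Dchs2 were lower still. Fat2, a cadherin known from keratinocytes and cerebellar granule cells, was at 0.217 to 0.352 RPKM in mutant-labelled and 0.185 to 0.433 RPKM in wild-type lungs. Dchs2 stood at 0.0890 and 0.103 RPKM in mutant-labelled and at 0.0704 to 0.123 RPKM in wild-type lungs. Fjx1 was at 2.03 and 2.68 RPKM in the mutant-labelled group and at 2.45 to 2.74 RPKM in wild type (-0.11, SE 0.10, limma adjusted p = 0.994). Fat2, Dchs2 and Fjx1 were not listed for vesicles.

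Ratios between members were taken within each library. In lung Fat3 was 0.0621 and 0.107 of Fat1 in the mutant-labelled libraries and 0.0545 to 0.0876 of it in wild type. Fat4 was 0.210 and 0.294 of Fat1 in mutant-labelled lungs and 0.206 to 0.241 of it in wild-type lungs. In vesicles Fat4 was 5.68 and 1.34 times Fat1 in the mutant-labelled libraries and 0.281, 2.65, 0.215 and 0.963 times Fat1 in the wild-type ones. Wild-type vesicle library 2 thus also held more Fat4 than Fat1, and lay between both mutant-labelled libraries on this ratio.

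Ranks were also taken within each library. Among the 8096 genes listed in both tables, Fat4 stood at percentiles 95.6 and 86.8 in mutant-labelled vesicles and 32.5, 69.7, 25.3 and 48.8 in wild-type vesicles. In lung it stood at 7.87 and 10.1 in mutant-labelled and at 8.04 to 9.92 in wild-type libraries. Within this set every vesicle library ranked Fat4 above every lung, wild type included. Fat1 stood at 76.9 and 82.8 in mutant-labelled vesicles and 48.4 to 57.8 in wild-type vesicles, against 37.9 to 46.0 in the 6 lungs. Fat3 stood at 72.8 and 12.3 in mutant-labelled vesicles and at 0 to 18.6 in wild-type vesicles, against 2.20 to 3.48 in lungs. The set was chosen on vesicle level, so it cannot show how far vesicles departed from lung. Over all 21950 genes listed for lung, Fat4 stood at percentiles 44.2 to 47.3 in lungs and Fat1 at 69.3 to 73.8. The vesicle percentiles are over 8096 genes, a set of another make-up, so they are not set against these.

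**Figure D2:**
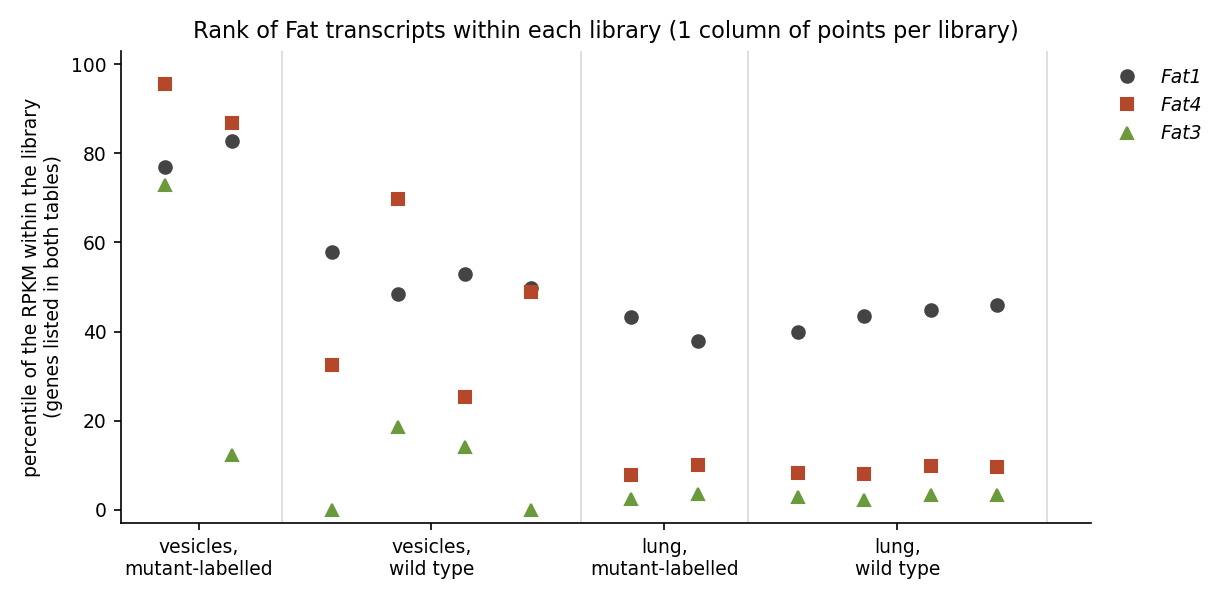
Percentile of the RPKM of Fat1, Fat4 and Fat3 within each library, among the 8096 genes listed in both tables. Each column of points is a library, and groups run from mutant-labelled vesicles to wild-type lung. Fat4 lies at 25.3 or above in every vesicle library and at 10.1 or below in every lung. The set was chosen on vesicle level, and over all genes listed for lung Fat4 lies at 44.2 to 47.3 in lungs.

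Across all genes limma called none in either source, so no member or pathway list is set against a list of called genes. Of 7615 genes tested in vesicles 0 passed (smallest adjusted p = 0.229), with 781 (10.3%) at an unadjusted p under 0.05. Of 13701 tested in lung 0 passed (smallest adjusted p = 0.364), with 514 (3.75%) at an unadjusted p under 0.05. Limma-voom on recovered reads called 1 gene in vesicles and 0 in lung. The 1 gene was Fat4, and since it was chosen on this contrast the call is no test of it. Both mutant-labelled libraries lay above every wild-type library for 9.88% of vesicle genes and below every one for 9.94%. The same shares in lung were 7.50% above and 4.12% below. Of the members tested, 2 of 2 lay above in vesicles and 0 of 3 lay above or below in lung, and nothing is read from the vesicle count because the genes were chosen on it.

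A feature that the choice of genes did not use is transcript length. The exons of the members span 11.1 kb (Dchs1), 14.8 kb (Fat1), 17.2 kb (Fat4) and 19.9 kb (Fat3) in GENCODE M1, and the longest coding transcripts hold 9876 to 14946 coding bases. In vesicles the median difference was -0.53 for 1568 genes under 2 kb, -0.24 for 3484 genes of 2 to 5 kb, 0.21 for 1996 genes of 5 to 10 kb and 0.56 for 389 genes of 10 kb or more. Over all vesicle genes the median was -0.14. Long transcripts thus tended to be higher in mutant-labelled vesicles, and in 98 of the 389 (25.2%, against 9.88% of all genes) both mutant-labelled libraries lay above every wild-type one. The order of medians ran the other way in lung, over a far smaller range, with 0.05 under 2 kb and -0.02 at 10 kb or more. That last value was 0.047 without mutant-labelled lung 1 and -0.092 without lung 2. The median for long transcripts in vesicles was 0.35 without mutant-labelled library 1 and 0.82 without mutant-labelled library 2, while that of all genes was 0.10 and -0.63. Both mutant-labelled vesicle libraries were also shallower, with 1745204 and 1676490 reads in genes against 4199519 to 5406238 in wild type. Depth and label thus cannot be told apart in vesicles, and the part of depth in the trend with length was not tested. The part of transcript length in the members' values was not tested.

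The place of Fat4 and Fat1 among long transcripts is given as a description, since both were chosen on this contrast. By difference Fat4 ranked 1 of the 389 vesicle transcripts of 10 kb or more and 23 of all 7615, while Fat1 ranked 40 and 515. By level among the 409 such transcripts listed in both tables, Fat4 ranked 10 and 29 in mutant-labelled vesicles and 246, 77, 287 and 171 in wild-type vesicles, against 355 to 367 in the 6 lungs. Fat1 ranked 104 and 38 in mutant-labelled vesicles and 109 to 201 in wild-type vesicles, so library 1 ranked just ahead of the nearest wild-type library. In lung Fat1 ranked 115 to 153. The 409 transcripts were likewise chosen on vesicle level, so the lung ranks hold only within that set.

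**Figure D3:**
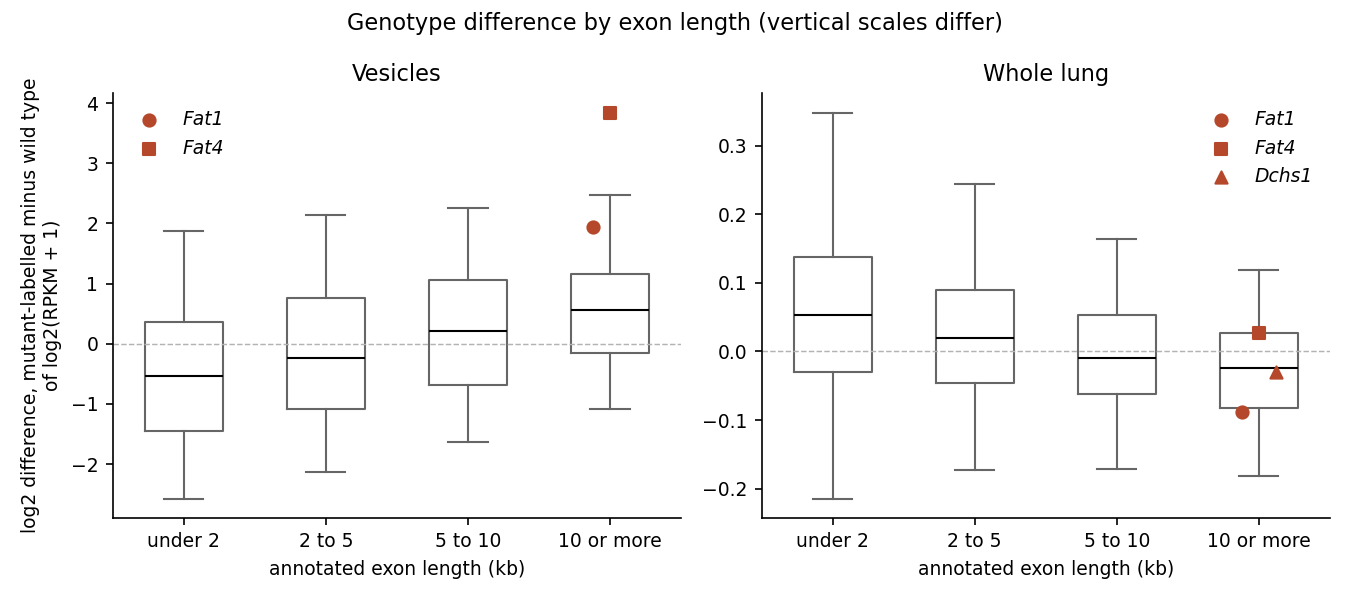
Difference in log2(RPKM + 1), mutant-labelled minus wild type, by annotated exon length in vesicles (left) and whole lung (right), on different vertical scales. Boxes are quartiles with the median and whiskers run from the 5th to the 95th percentile of tested genes. Vesicle medians go up with length from -0.53 to 0.56, and Fat4 lies above the whiskers of its length class.

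Markers of other cell types also moved in the vesicle libraries. The mesothelial list, for the cells that line the lung surface, had 4 of 8 markers listed, with a summed level of 219 and 2.20 RPKM in mutant-labelled vesicles and 3.80, 31.0, 0 and 6.20 RPKM in wild type. Its defining markers Msln and Wt1 were not listed. By this sum mutant-labelled library 1, which held the most Fat4 and nearly all of the Fat3, was the highest. Wild-type library 2, highest in Fat4 among wild type, was the next. The listed markers did not move together. Upk3b was at 2.60 RPKM in mutant-labelled library 1 and 15.8 RPKM in wild-type library 2, and Rspo1 at 102 and 0 RPKM. In the same libraries Gpm6a was at 66.1 and 3.86 RPKM and Upk1b at 48.9 and 11.4 RPKM. Mutant-labelled library 2 lay below 3 of the 4 wild-type libraries in the mesothelial sum and still held 36.9 RPKM of Fat4 and 27.5 RPKM of Fat1. Macrophage markers, 7 of 11 listed, summed to 681 and 337 RPKM in mutant-labelled vesicles and 0.987, 215, 278 and 10.7 RPKM in wild type, so both mutant-labelled libraries lay above every wild-type one. All 7 had a difference above 0, beside 46.0% of all vesicle genes, but the groups lay apart in only 3 (Cd68, Itgam and C1qc). Over all vesicle genes 9.88% lay above. The mean of Csf1r was 5.88 RPKM in mutant-labelled and 6.54 RPKM in wild-type vesicles. The defining markers Marco and C1qa were not listed. The alveolar type 2 list had 2 of 8 listed, Lyz2 (a gene macrophages also express) and Etv5, with sums of 4369 and 3191 RPKM in mutant-labelled vesicles and 22.1 to 2415 RPKM in wild type. Smooth muscle markers, all 9 listed, summed to 374 and 2738 RPKM in mutant-labelled vesicles and 1419 to 2551 RPKM in wild type. Fibroblast markers summed to 756 and 1277 RPKM in mutant-labelled and 1039 to 1513 RPKM in wild-type vesicles. The part of these cell types in the Fat values was not tested.

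In whole lung the mesothelial list summed to 236 and 156 RPKM in mutant-labelled and 146 to 224 RPKM in wild-type libraries, and the fibroblast list to 713 and 1009 RPKM in mutant-labelled and 740 to 866 RPKM in wild-type libraries. Neutrophil markers summed to 609 and 970 RPKM in mutant-labelled and 137 to 404 RPKM in wild-type lungs, so the sums lay apart. Of 11 tested singly, 9 lay above every wild-type lung, beside 7.50% of all lung genes, while Csf3r and Lcn2 overlapped. No member lay apart in lung.

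**Figure D4:**
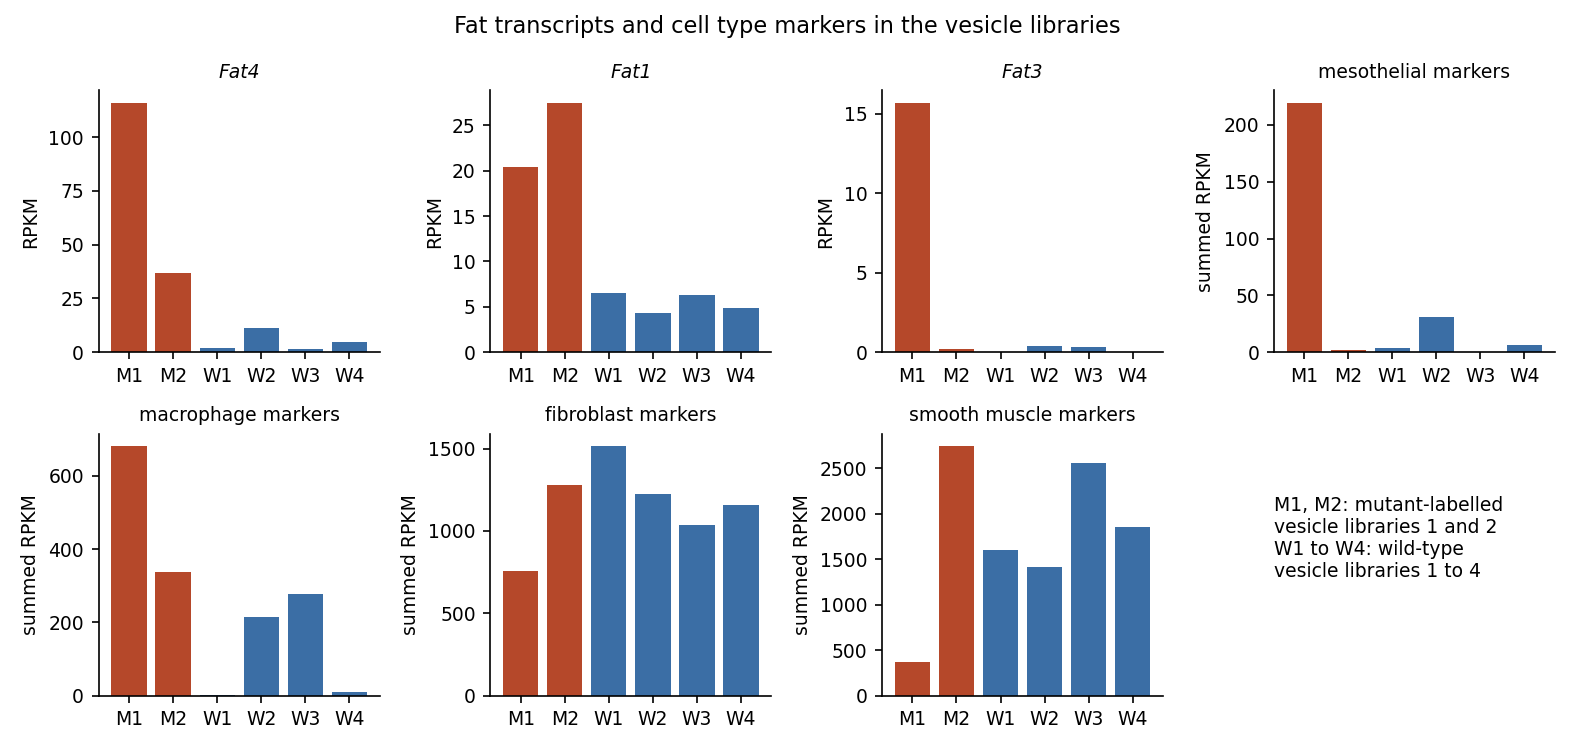
RPKM of Fat4, Fat1 and Fat3 and summed RPKM of marker lists in the 2 mutant-labelled (M1, M2) and 4 wild-type (W1 to W4) vesicle libraries; bars start at 0. M1 is the highest library for Fat4, Fat3 and the mesothelial sum, at 219 RPKM, whereas Fat1 is highest in M2.

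Genes of the Hippo kinase cascade did not pass in either source. In vesicles 23 of 26 were tested, with a median of -0.02, and 11 had a difference above 0, beside 46.0% of all vesicle genes. In 5 of the 23 both mutant-labelled libraries lay above every wild-type one, and in 0 below, beside 9.88% and 9.94% of all vesicle genes. The share above was 14.6% for transcripts of 5 to 10 kb and 25.2% for those of 10 kb or more. The median was 0.21 without mutant-labelled library 1. The 5 genes lying above were the tumour suppressor Nf2, the kinases Lats1 and Taok1, the scaffold Wwc2 and the phosphatase Ptpn14, which holds back Yap1. Ptpn14 stood at 47.2 and 8.94 RPKM in mutant-labelled vesicles and 1.01 to 7.30 RPKM in wild type (2.0, SE 0.97, limma adjusted p = 0.498). Nf2 stood at 43.0 and 19.2 RPKM in mutant-labelled and 8.76 to 13.8 RPKM in wild-type vesicles (1.31, SE 0.71, limma adjusted p = 0.528). Lats1 stood at 18.8 and 18.1 RPKM in mutant-labelled and 1.55 to 13.6 RPKM in wild-type vesicles. The exons of the 5 genes span 6.55 to 12.4 kb.

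In lung all 26 were tested, with a median of -0.06. Of these 3 had a difference above 0, beside 55.7% of all lung genes. In 3 genes both mutant-labelled lungs lay below every wild-type lung (Mob1b, Wwc1 and Tead3) and in 0 above. The shares over all genes were 4.12% below and 7.50% above. The largest of these 3 differences was that of Mob1b, a cofactor of the Lats kinases, at 6.32 and 5.91 RPKM in mutant-labelled and 6.41 to 7.06 RPKM in wild-type lungs (-0.14, SE 0.06, limma adjusted p = 0.994). Leaving out mutant-labelled lung 1 gave a median of 0.077, and leaving out lung 2 gave -0.17. Wwtr1 was at 25.7 and 39.5 RPKM in the mutant-labelled group and 35.9 to 40.8 RPKM in wild type.

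Published target genes of Yap1 likewise gave 0 calls. In vesicles 16 of 22 were tested, with a median of 0.03, and 8 were above 0, beside 46.0% of all vesicle genes. In 5 both mutant-labelled libraries lay above every wild-type one and in 0 below. The shares were 9.88% and 9.94% over all vesicle genes. The share above was 8.01% for transcripts of 2 to 5 kb and 25.2% for those of 10 kb or more. Of these 5, Dock5, Arhgef17 and Ptpn14 have exons of 10.3 to 11.6 kb, and Cyr61 and Tgfb2 of 2.03 and 4.84 kb. Ptpn14 was also counted in the Hippo list. The median was 0.42 without mutant-labelled library 1 and -0.17 without library 2. The matricellular gene Cyr61 stood at 24.4 and 20.7 RPKM in mutant-labelled vesicles and 0.319 to 10.4 RPKM in wild type (2.19, SE 0.99, limma adjusted p = 0.485). The exchange factor gene Arhgef17 stood at 19.5 and 19.8 RPKM in mutant-labelled and 1.59 to 7.26 RPKM in wild-type vesicles (2.17, SE 0.86, limma adjusted p = 0.482). In lung 22 of 22 were tested, with a median of -0.06, which was 0.036 without mutant-labelled lung 1. Of these genes 7 were above 0, beside 55.7% of all lung genes. There 2 genes lay above every wild-type lung (Cyr61 and Nuak2) and 2 below (Nt5e and Tgfb2), beside 7.50% and 4.12% of all genes. Cyr61 was at 106 and 99.5 RPKM in mutant-labelled and 68.0 to 81.5 RPKM in wild-type lungs (0.49, SE 0.09, limma adjusted p = 0.853). Cyr61 is also an immediate early gene.

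Of 24 planar polarity genes 9 were listed in vesicles, beside 8096 of 21950 genes in all, and 6 were tested (median -0.16). The core polarity genes Vangl1 and Vangl2 and the atypical cadherins Celsr1, Celsr2 and Celsr3 were not listed. Dvl2, an adaptor of Frizzled receptors, stood at 0 and 1.14 RPKM in mutant-labelled and 2.81 to 6.12 RPKM in wild-type vesicles (-1.79, SE 0.95, limma adjusted p = 0.520). Rhoa, a GTPase of the actin skeleton, was the other gene below every wild-type library (9.94% of all genes) and Smurf1 the single one above (9.88% of all genes). In lung 23 of 24 were tested with a median of 0.02 and 0 calls, and 2 lay above every wild-type lung (Wnt5a and Fzd6) and 1 below (Dvl1), beside 7.50% and 4.12% of all genes. The ligand Wnt5a stood at 4.67 and 4.97 RPKM in mutant-labelled and 3.20 to 4.39 RPKM in wild-type lungs (0.29, SE 0.11, limma adjusted p = 0.994).

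Of 29 other cadherin genes 6 were listed and tested in vesicles (median 0.53). In 0 of the 6 did the groups lie apart, beside 9.88% above and 9.94% below over all vesicle genes. With 6 genes nothing is read from that count. This median was 1.01 without mutant-labelled library 1 and -0.37 without library 2. Cdh11, the cadherin of mesenchymal cells, stood at 44.3 and 16.4 RPKM in mutant-labelled and 6.62 to 19.1 RPKM in wild-type vesicles (0.87, SE 0.75, limma adjusted p = 0.645). Cdh2 stood at 0 and 1.85 RPKM in mutant-labelled and 1.79 to 3.38 RPKM in wild-type vesicles (-1.17, SE 0.94, limma adjusted p = 0.628). Of 14 cytoplasmic partners 10 were tested in vesicles (median 0.63). The polarity scaffold Mpp5 alone lay above, near the share of 9.88% over all vesicle genes. Mpp5 stood at 28.7 and 21.1 RPKM in mutant-labelled and 4.71 to 13.2 RPKM in wild-type vesicles. The Ena/VASP gene Vasp was at 0 and 27.9 RPKM in mutant-labelled and 0 to 2.15 RPKM in wild-type vesicles. In lung 16 of the 29 cadherins were tested, with a median of -0.05 and 0 calls, and Cdh16 and Pcdh7 lay below every wild-type lung, against 4.12% of all genes. Leaving out mutant-labelled lung 1 moved it to 0.16, and leaving out lung 2 to -0.25. Of the 14 partners 12 were tested in lung, with a median of -0.01 and 0 calls, and without mutant-labelled lung 1 the median was 0.072.

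The genes that followed a member most closely over the 6 libraries of a source were taken by Pearson's r of log2(RPKM + 1), among genes with a mean of at least 2 on that scale. In vesicles they were, for Fat4, Iqgap1 (0.992), Ep300 (0.989), Zfp592 (0.979), Mff (0.979) and Cnbd2 (0.977), and 29 of 4649 genes exceeded 0.95. For Fat1 they were Dst, listed under 2 identifiers (both 0.994), Farp1 (0.992), Wdr26 (0.974) and Ankrd12 (0.972), and 10 genes exceeded 0.95. No gene was in both lists. The scaffold Iqgap1 stood at 45.9 RPKM on average in mutant-labelled and 13.6 RPKM in wild-type vesicles, and the acetyltransferase Ep300 at 31.1 RPKM in mutant-labelled and 2.36 RPKM in wild-type vesicles. In lung the closest genes were Tanc2 for Fat1 (0.988), Mapkap1 for Fat4 (0.995) and Api5 for Dchs1 (0.983). The 6 points of a source hold both groups, and in vesicles depth differs between the groups, so these are descriptions only.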

How the data were processed

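The authors deposited 1 table of vesicles and 1 of whole lung, each holding 6 libraries and 0 further columns of values. No header names a unit. The deposited numbers were taken as RPKM because, once multiplied by exon length, 48.9% to 52.9% of them per library came within 0.02 of a whole multiple of 1 step. Alignment to mm9 with TopHat2 and counting with HTSeq are named by the submitters' processing notes. The sources used here do not give versions, strand setting or annotation, so reads of a gene and an antisense partner cannot be told apart. Exon lengths and mm9 coordinates are those of GENCODE M1.

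Reads per gene were recovered from these steps for 99.9% of genes above 0 in each table, by searching lengths of 150 to 30000 bases for whole reads, and are approximate. Both tables gave 1 length each for Fat1 (15586 bases), Fat3 (18456) and Fat4 (17165). No pair of replicate libraries agreed within sampling noise (chi-square per degree of freedom at least 21.3).

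Groups were compared within a table by limma-trend (limma 3.58.1, R 4.3.3) on log2(RPKM + 1), over genes that reached 1 RPKM in 2 or more libraries, with Benjamini-Hochberg adjustment over all of them and a threshold of 0.05. Fold changes on this scale understate those of low genes. The method was tested on simulated data. Marker sums are sums of RPKM over listed genes. The members and gene lists were chosen with earlier results of these data known. Named genes are the members, Fat2, Dchs2, Fjx1, Tbx4, Ghr, up to 4 genes of each pathway list with the smallest p and the 5 closest in pattern to each member, of which part is given. Names of groups lying apart, marker genes, Ddx3y and Wwtr1 beyond that rule were taken after their values were seen. Alternatives were the pseudocount, the filter, median-ratio scaling, a replicate block, each library left out, wild-type libraries 1 and 2 left out, and limma-voom on recovered reads, scaled to library totals.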

Additional observations from a re-analysis of the deposited data

Results flagged for a closer look

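Dchs2 in wild-type lungs was taken up because a single library stood far from the others. Wild-type lung 4 held 0.123 RPKM on 57 reads, against 0.0704 to 0.0766 RPKM on 33 to 37 reads in the other wild-type lungs, and the gap was 0.883 of the whole range. The mutant-labelled lungs held 0.0890 and 0.103 RPKM. Of 13 wild-type groups of 4 libraries examined 1 was taken up, where chance gives about 1 in 20.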

How the results depend on the processing

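The number of genes called was 0 in lung under every alternative except the fit without a filter, which called 1 (Gm17374). In vesicles it was 0 except for 1 gene (Fat4, which was chosen on this contrast) by limma-voom and 377 without mutant-labelled library 2, so leaving out libraries gave 0 to 377. That fit has mutant-labelled library 1 alone, which stood apart and is assumed to vary like the wild-type libraries. Limma-voom put Fat4 at 4.23, Fat1 at 2.14 and the median of partners at 0.91 in vesicles. Leaving out single libraries gave differences of 3.03 to 4.65 for Fat4 and 1.74 to 2.15 for Fat1 in vesicles, and of -0.09 to 0.14 for Fat4, -0.16 to -0.02 for Fat1 and -0.18 to 0.13 for Dchs1 in lung. With a pseudocount of 5 Fat1 was at 1.46 in vesicles.

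Over the libraries left out, list medians ran in vesicles from -0.10 to 0.21 (Hippo), -0.17 to 0.42 (Yap1 targets), -0.53 to -0.11 (planar polarity), 0.43 to 0.73 (partners), -0.37 to 1.01 (other cadherins) and 0.35 to 0.82 (long transcripts). In lung they ran from -0.17 to 0.077 (Hippo), -0.23 to 0.036 (Yap1 targets), 0.02 to 0.06 (planar polarity), -0.041 to 0.072 (partners), -0.25 to 0.16 (other cadherins) and -0.092 to 0.047 (long transcripts). A pseudocount of 5 gave 0.32 for long transcripts and 0.40 for partners in vesicles, a filter of 5 RPKM gave -0.073 for partners, and no filter gave 0.77 for planar polarity. Without wild-type vesicle libraries 1 and 2 the Hippo median was -0.25 and that of Yap1 targets 0.55. The cause of these moves was not tested.

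With the replicate number as a block, the vesicle differences were 3.49 for Fat4 and 1.97 for Fat1, 0 genes were called in either table, and the planar polarity median in lung was 0.10. Same-numbered mutant-labelled and wild-type libraries deviated with correlations of -0.48 and 0.05 in lung and -0.05 and -0.12 in vesicles. These values showed no pairing by number. They cannot exclude it, because the deviations of 2 mutant-labelled libraries from their mean are exact opposites. Among other genes, directions turned only where a library was left out, with ranges in lung of -0.25 to 0.030 (Fjx1), -0.24 to 0.099 (Lix1l), -0.31 to 0.052 (Mpp5), -0.22 to 0.010 (Stk3), -0.55 to 0.051 (Wwtr1), -0.035 to 0.32 (Homer3) and -0.034 to 0.16 (Rere), and in vesicles of -1.01 to 3.85 (Vasp) and -0.28 to 1.23 (Pcdhgc3). Depth limits the low genes, since 1 read per kilobase was worth 0.573 and 0.596 RPKM in mutant-labelled and 0.185 to 0.238 RPKM in wild-type vesicles.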
